A study of Rattus norvegicus with 2 samples.

Results

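Fibroblast growth factors and their receptors were examined in rat retina after ischemia-reperfusion. The 10 genes described are Fgf1, Fgf2, Fgf9, Fgf12, Fgf13, Fgf14, Fgfr1, Fgfr2, Fgfr3 and Fgfr4, taken by gene symbol from the deposited expression table. Each symbol matched 1 row, so 10 of the 32662 listed genes were used. The series holds 2 RNA-seq libraries of rRNA-depleted total RNA from the retina of Long-Evans rats, labelled 2 months old and described as female in the study's methods. CTRL is the sham control, and IR12 is the injured retina collected 12 hours after reperfusion. With 1 library per condition there is no replicate error, no test between conditions was made, and every difference below is between these 2 libraries. Values are FPKM as deposited, a level scaled to transcript length and to the size of the library.

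Fibroblast growth factors (FGFs) are a family of signalling proteins. Most are released from cells and, together with heparan sulfate, bind receptor tyrosine kinases (FGFRs) that activate the RAS-MAP kinase cascade, while the FGF homologous factors (FHFs) stay inside neurons and bind voltage-gated sodium channels. In the retina, FGF2 is known as a survival factor for photoreceptors that is induced by several kinds of injury, and FGF receptors are found on both Müller glia and neurons.

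The differences past 2-fold lay in 1 ligand and 2 receptors. Fgf2 and Fgfr1 were higher in IR12, Fgfr2 was lower, and the other members differed by less than 2-fold on the log2(FPKM + 1) scale used here. An FPKM of at least 1 in at least 1 library was reached by 9 of the 10 members, the exception being Fgfr4, and in both libraries by 8. At least 2-fold higher in IR12 were 2 members, beside 892 of all 13599 genes that passed the same minimum and are called tested below (6.56%). At least 2-fold lower was 1 member, beside 832 of all genes (6.12%). With both columns brought to the same sum the counts were again 2 and 1 of the 9, beside 20.7% of all genes higher and 3.21% lower, so that the count of higher members is near the share of all genes on that scale. The median log2 ratio was -0.45 over the 10 members and -0.46 over the 9 tested, and that of all genes tested was 0.02. The sign of this median depended on the scaling between libraries, because over the 10 members it was 0.18 with the same sum. On that scale the median of all genes tested was 0.59, so the median of the members lay below it there too. It was -0.54 with the same sum without small non-coding RNAs and -0.47 with centring on the median gene.

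**Figure D1:**
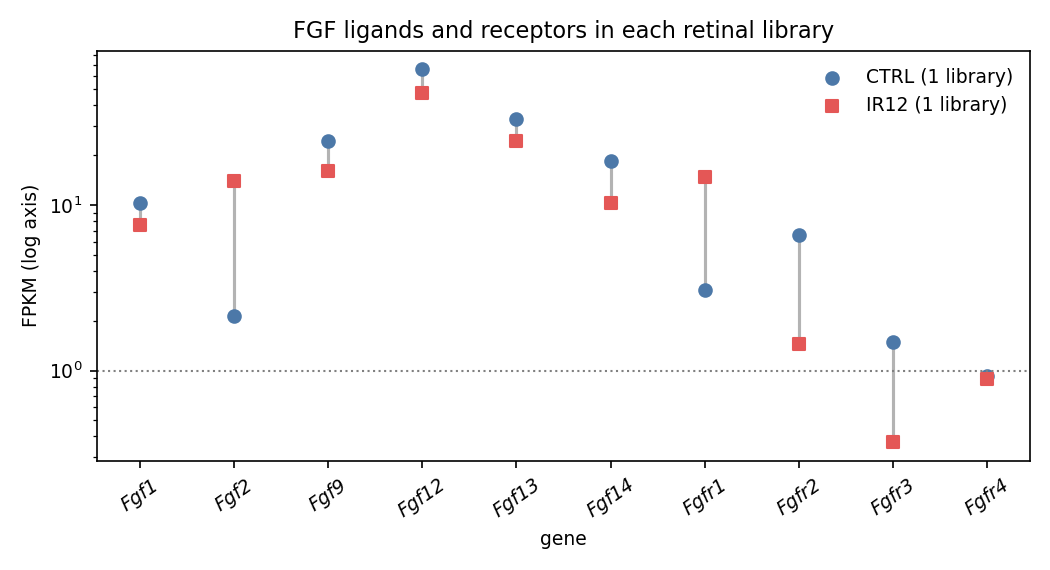
FPKM of the 10 genes on a log axis, with a circle for the CTRL library and a square for the IR12 library and a dotted line at an FPKM of 1. Fgf2 and Fgfr1 lie higher in IR12, at 13.9 and 14.8, and Fgfr2 and Fgfr3 lie lower, at 1.44 and 0.369.

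Fgf2 encodes basic FGF, which binds several FGF receptors and is stored on heparan sulfate of the extracellular matrix. Its FPKM was 2.13 in CTRL and 13.9 in IR12. The level was thus 6.51 times as high in IR12, and the log2 ratio of (FPKM + 1) was 2.25. Of all genes tested, 210 had a log2 ratio at least as high, or 1.54%. In CTRL the Fgf2 level lay above that of 14.6% of the genes tested, and in IR12 above that of 51.8%, so that a gene among the low ones in the sham retina stood near the middle of all genes in the injured retina. Fgf2 (ENSRNOG00000017392) is listed at chr2:124081072-124149636 on rn6, the same locus as Nudt6, a gene transcribed from the opposite strand and known as the FGF2 antisense gene. The kit keeps strand, but whether strand was used in counting is not stated in the sources used here, and without it reads from the parts where this pair overlaps cannot be told apart. For Nudt6 the log2 ratio was 0.27, from 3.55 FPKM in CTRL and 4.50 in IR12.

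Fgf1 encodes acidic FGF, which can bind all of the classical FGF receptors. Its FPKM was 10.2 in CTRL and 7.56 in IR12, with a log2 ratio of -0.39. Fgf9 encodes a ligand made by neurons, with a role in eye development in setting the border between neural retina and pigment epithelium. Its FPKM was 24.2 in CTRL and 16.1 in IR12, with a log2 ratio of -0.56. Both were lower in IR12 in the deposited values but slightly higher after scaling to the same sum, with log2 ratios of 0.19 for Fgf1 and 0.06 for Fgf9. This scaling raised the median of all genes tested by 0.57, to 0.59, and both ligands lay below that median.

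Unlike sums, ratios between genes within a library do not depend on the scaling between libraries. Fgf9 stood at 2.37 times the FPKM of Fgf1 in CTRL and 2.13 times in IR12, so these ligands kept nearly the same proportion. The FPKM of Fgf2 was 0.209 times that of Fgf1 in CTRL and 1.83 times in IR12. The order of these 3 ligands was therefore Fgf9, Fgf1 and Fgf2 in CTRL and Fgf9, Fgf2 and Fgf1 in IR12. With Fgf10, the other receptor-binding ligand with an FPKM of at least 1 (2.75 in CTRL and 1.78 in IR12), the deposited levels summed to 39.3 in each library, or to 61.6 in IR12 with the column sum of CTRL. Fgf2 made up 5.42% of this sum in CTRL and 35.2% in IR12, while Fgf9 made up 61.6% and 41.0%.

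Fgfr1 encodes the receptor tyrosine kinase that is widely used by neural progenitors, neurons and glia. Its FPKM was 3.05 in CTRL and 14.8 in IR12. The level was 4.84 times as high in IR12, with a log2 ratio of 1.96, a value reached or passed by 272 of the genes tested (2.00%). Fgfr1 (ENSRNOG00000016050) is listed at chr16:71266248-71319449 on rn6, a locus shared with the small RNA gene SNORA15, which is at 0 in both libraries. In CTRL its level lay above that of 20.1% of the genes tested and in IR12 above that of 53.4%, positions close to those of Fgf2.

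Fgfr2 encodes a receptor whose splice forms differ in the ligands they bind, and the gene totals used here do not separate these forms. Its FPKM was 6.55 in CTRL and 1.44 in IR12. The level was 4.54 times as high in CTRL, with a log2 ratio of -1.63, a value reached or passed downward by 387 of the genes tested (2.85%). Fgfr2 (ENSRNOG00000016374) is listed at chr1:200590953-200696928 on rn6. It was the receptor with the highest FPKM in CTRL, and its level in IR12 was about that of Fgfr3 in CTRL.

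Fgfr3 encodes a receptor known in neural tissue mainly from glia and progenitor cells. Its FPKM was 1.48 in CTRL and 0.369 in IR12. The level in IR12 was 0.250 times that in CTRL, but the log2 ratio of (FPKM + 1) was -0.86, short of 2-fold, since the added 1 weighs heavily on such low values. With 0.1 added in place of 1 the log2 ratio was -1.75. Fgfr3 (ENSRNOG00000016818) is listed at chr14:82273070-82287706 on rn6. Fgfr2 and Fgfr3 stood in a similar proportion, with Fgfr2 at 4.43 times the FPKM of Fgfr3 in CTRL and 3.91 times in IR12. The Fgfr3 level in IR12 rests on few reads, as given below, so this proportion is uncertain.

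Fgfr4 encodes a receptor best known from liver, where it serves bile acid control. Its FPKM was 0.929 in CTRL and 0.883 in IR12, with a log2 ratio of -0.03. This receptor was low in both libraries and differed little between them.

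The receptor set differed in make-up. The FPKM of Fgfr1 to Fgfr4 summed to 12.0 in CTRL and 17.5 in IR12, or 27.4 in IR12 with the column sum of CTRL. Fgfr1 made up 25.4% of the sum in CTRL and 84.6% in IR12, and Fgfr2 made up 54.5% and 8.26%. Fgfr3 made up 12.3% and 2.11%, and Fgfr4 made up 7.74% and 5.06%. By FPKM, the receptor RNA of the CTRL library was thus mainly Fgfr2 and that of the IR12 library mainly Fgfr1. Lens genes summed to 3061 FPKM in CTRL and 368 in IR12, and their part in this make-up was not tested. The FPKM of Fgfr1 was 0.466 times that of Fgfr2 in CTRL and 10.2 times in IR12, a change of 22.0 times in their proportion. In bulk tissue, fewer cells of a type and less RNA per cell cannot be told apart.

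**Figure D2:**
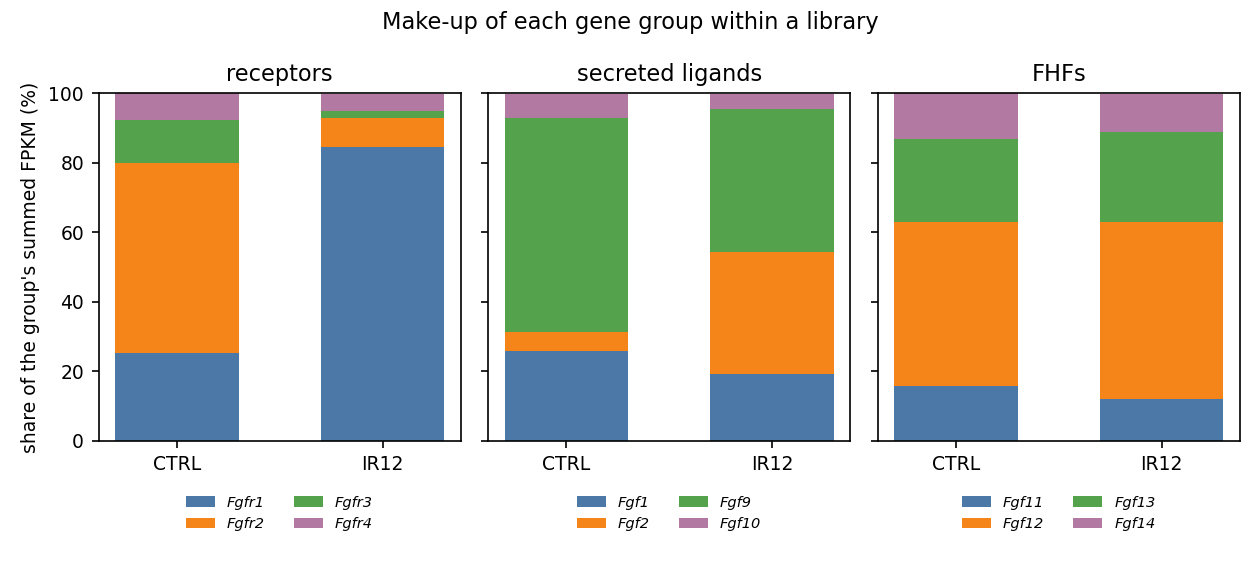
Share of each gene in the summed FPKM of its group within a library, in percent, for the FGF receptors, the receptor-binding ligands with an FPKM of at least 1, and the FHFs. Fgfr1 takes 25.4% of the receptor sum in CTRL and 84.6% in IR12, while Fgf12 takes 47.2% and 50.9% of the FHF sum.

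The low levels of the receptors rest on few reads. The lowest values of short genes moved in steps of single reads, and from these steps an FPKM of 1 stood for 15.4 reads per kb of transcript in CTRL and 26.3 in IR12. On this scale Fgfr3 rested on 22.8 reads per kb in CTRL and 9.72 in IR12, and Fgfr4 on 14.3 and 23.2. Counting 1 kb of transcript, the exact (Clopper-Pearson) 95% interval of the FPKM ratio, IR12 over CTRL, was 0.108 to 0.556 for Fgfr3 and 0.474 to 2.02 for Fgfr4. The interval of Fgfr4 holds 1, so that a difference of its size is within counting error on this assumed length. For Fgfr2, with 101 and 38.0 reads per kb, the interval was 0.148 to 0.323. For Fgf2, with 32.8 and 365 reads per kb, it was 4.53 to 9.55, and for Fgfr1, with 47.0 and 389, it was 3.57 to 6.71. These intervals describe the 2 libraries and cover counting error only, not the variation between animals, and the step was chosen after the data were seen.

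Fgf12, Fgf13 and Fgf14 encode FHFs, which modulate the inactivation of sodium channels and the excitability of neurons. Fgf12 had the highest FPKM of the 10 members, with 65.9 in CTRL and 47.5 in IR12. The FPKM of Fgf13 was 33.2 in CTRL and 24.3 in IR12, and that of Fgf14 was 18.5 and 10.3. In the deposited values the log2 ratios of these 3 genes were -0.46, -0.43 and -0.78, all lower in IR12. After scaling to the same sum Fgf12 and Fgf13 were higher in IR12, at 0.17 and 0.19, and Fgf14 was lower, at -0.18, while all 3 lay below the median of all genes on that scale. The listed locus of Fgf12 is shared with a 7SK gene (1.07 and 2.49 FPKM) and that of Fgf14 with AC109837.1 (0 and 0.00770).

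The FHFs differed less in their proportions than the receptors. Together with Fgf11, the remaining FHF (FPKM of 22.1 in CTRL and 11.2 in IR12), they summed to 139.6 in CTRL and 93.4 in IR12, or 146 in IR12 with the column sum of CTRL. Fgf12 made up 47.2% of the sum in CTRL and 50.9% in IR12, Fgf13 made up 23.7% and 26.1%, Fgf14 made up 13.2% and 11.0%, and Fgf11 made up 15.9% and 12.0%. The FPKM of Fgf12 was 1.99 times that of Fgf13 in CTRL and 1.95 times in IR12, and 3.57 and 4.61 times that of Fgf14. The order of Fgf12, Fgf13, Fgf11 and Fgf14 by FPKM was the same in both libraries.

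The channels that FHFs bind were read beside them. Of 10 sodium channel subunits and partners of FHFs, 10 were lower in IR12 in the deposited values. Of these, 0 were at least 2-fold lower, beside 6.12% of all genes. Their median log2 ratio was -0.38, in a range from -0.66 to -0.12. With the same sum in both libraries 9 were higher and 1 lower, with a median of 0.17, below the 0.59 of all genes. Ank3, the scaffold that holds sodium channels at the axon initial segment, was the most abundant by the mean of both libraries, the order used below, with 48.8 FPKM in CTRL and 34.4 in IR12. Marker lists of inner retinal neurons were lower as well in the deposited values. The ganglion cell list summed to 331 in CTRL and 269 in IR12, with Nefl, a neurofilament, the most abundant (132 and 88.8), and the amacrine and horizontal cell list summed to 286 and 183, with Gad1 the most abundant (107 and 82.7). The bipolar cell list summed to 537 and 412, with Trpm1 the most abundant (189 and 159). The number of genes lower in IR12 was 5 of 7 tested for ganglion cells, 6 of 6 for amacrine and horizontal cells and 5 of 6 for bipolar cells. With the same sum it was 1, 5 and 2. No share of all genes simply lower was computed for these counts. In this order the list medians were -0.16, -0.78 and -0.40, beside 0.02 for all genes. With the same sum they were 0.46, -0.14 and 0.22, beside 0.59 for all genes. None of these lists holds a gene at 0 in either library. Their part in the FHF values was not tested.

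**Figure D3:**
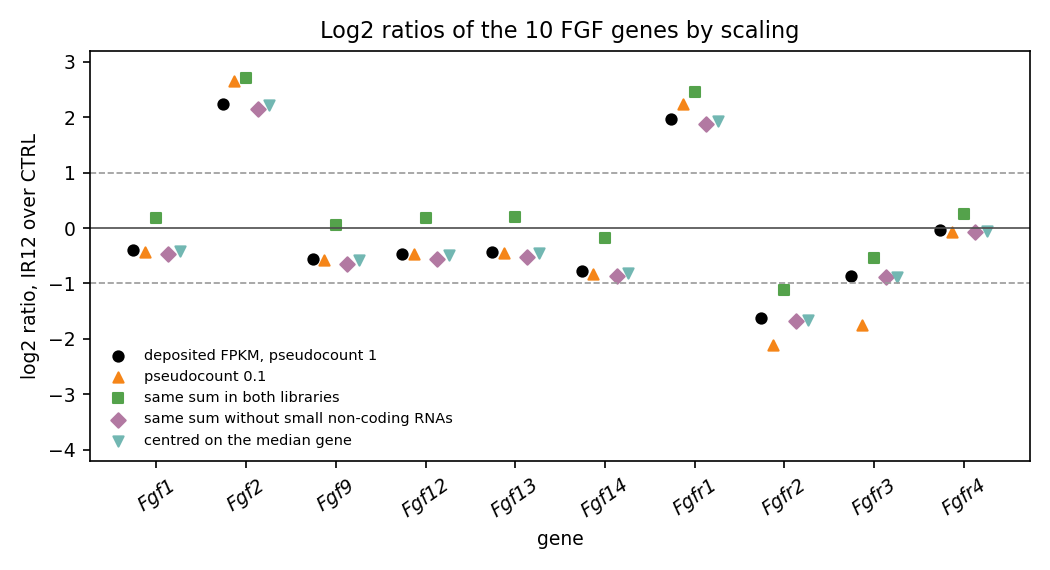
Log2 ratio of each of the 10 genes, IR12 over CTRL, with the deposited FPKM, with 0.1 added in place of 1, and with 3 other scalings, and dashed lines at 2-fold. Fgf2 and Fgfr1 lie above 2-fold and Fgfr2 below it on each scale, whereas Fgf1, Fgf9, Fgf12, Fgf13 and Fgfr4 change sign when both libraries are brought to the same sum.

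The sums used for scaling were in large part small non-coding RNAs, which took 67.8% of the FPKM in CTRL and 46.1% in IR12. With both libraries brought to the same sum, 2817 of all genes were at least 2-fold higher and 436 at least 2-fold lower. Leaving out these small RNAs before scaling gave 791 and 935. On these scales the log2 ratio of Fgf2 was 2.71 and 2.16, that of Fgfr1 was 2.46 and 1.87, and that of Fgfr2 was -1.12 and -1.68. These 3 genes thus kept their direction and stayed past 2-fold.

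Promoter sequences were at hand for 9 of the 10 members in RefSeq (GRCr8), the exception being Fgfr1. Those of Fgf2, Fgfr2 and Fgfr3 are shown. They were chosen because Fgf2 had the largest log2 ratio and the 2 receptors, both lower in IR12, kept a similar proportion. Each runs 5′ to 3′ on the gene's strand over 300 bases, of which 250 lie before the annotated start. Capitals mark matches on either strand to a GC box (GGGCGG) or to a STAT motif (TTCNNNGAA). An AP-1 motif (TGANTCA) and a TATA box (TATAAA) were also searched and had no match in these 3 windows.
Fgf2: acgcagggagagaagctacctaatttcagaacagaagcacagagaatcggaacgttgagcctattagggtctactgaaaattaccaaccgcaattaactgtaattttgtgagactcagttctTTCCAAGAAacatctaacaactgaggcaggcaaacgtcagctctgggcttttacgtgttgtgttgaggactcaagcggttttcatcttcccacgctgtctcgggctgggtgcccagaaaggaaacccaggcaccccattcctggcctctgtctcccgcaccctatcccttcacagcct
Fgfr2: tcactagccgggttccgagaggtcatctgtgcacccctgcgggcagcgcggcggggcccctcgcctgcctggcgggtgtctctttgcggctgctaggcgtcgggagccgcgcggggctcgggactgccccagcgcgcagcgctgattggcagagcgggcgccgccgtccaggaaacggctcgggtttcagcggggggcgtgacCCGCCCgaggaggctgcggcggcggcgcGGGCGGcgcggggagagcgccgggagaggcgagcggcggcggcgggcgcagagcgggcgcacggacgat
Fgfr3: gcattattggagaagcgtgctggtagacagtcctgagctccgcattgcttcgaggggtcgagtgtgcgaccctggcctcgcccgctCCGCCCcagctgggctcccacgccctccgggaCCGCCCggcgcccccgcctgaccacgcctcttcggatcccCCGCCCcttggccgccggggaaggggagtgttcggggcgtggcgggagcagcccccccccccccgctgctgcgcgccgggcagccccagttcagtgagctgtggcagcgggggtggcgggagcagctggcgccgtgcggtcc
The Fgf2 window lies at chr2:122164204-122164503 on the plus strand, the Fgfr2 window at chr1:194280865-194281164 and the Fgfr3 window at chr14:81227160-81227459, both on the minus strand, all on GRCr8 and not on the rn6 build of the expression values. G and C make up 49.7% of the Fgf2 window, 77.7% of the Fgfr2 window and 74.7% of the Fgfr3 window, and the median over 33469 promoters of this length was 51.7%. The Fgfr2 window holds 2 GC boxes, the Fgfr3 window 3 and the Fgf2 window 0. The windows of Fgf9 and Fgf13, lower in IR12 in the deposited values, also hold 0. The Fgf2 window has 1 STAT motif, at bases 123 to 131. Of all promoters, 33.1% hold a GC box, 8.87% a STAT motif, 7.33% an AP-1 motif and 14.2% a TATA box. With no promoter of Fgfr1 at hand, Fgf2 is the single member higher in IR12 that has one, so the windows were not compared by direction. Among the 11 promoters of the members, 6 hold a GC box, among them that of Fgfr4, with 3 boxes and 63.3% G and C, and 2 hold a STAT motif, the other being that of Fgf1. A match describes the letters in the window and does not show a site in use.

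Of 16 further FGF genes listed, the ligand Fgf10 and the FHF Fgf11 alone reached an FPKM of 1, with log2 ratios of -0.43 and -0.92. With the same sum these were 0.01 and -0.31. Of the 16 genes, 7 were listed at 0 in both libraries. Since the table also gives 0 for 37 of 37 mitochondrial genes, which every cell uses, such a 0 was not read as absence. Among 6 tested co-receptors and carriers of FGFs, 0 were past 2-fold in either direction, beside 6.56% of all genes higher and 6.12% lower. The median log2 ratio of this list was 0.04. With the same sum 1, Flrt3, was past 2-fold higher, at 1.32, beside 20.7% of all genes. The median on that scale was 0.56, near the 0.59 of all genes. Flrt3, a membrane protein that binds FGF receptors, was the most abundant, with 15.3 FPKM in CTRL and 25.8 in IR12. Fgfrl1, a receptor without a kinase domain, had 0.636 and 0.736.

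Heparan sulfate, the sugar chain that FGFs need to bind their receptors, is built and trimmed by many enzymes. Of 21 tested proteoglycans and enzymes of heparan sulfate, 1 was at least 2-fold higher and 1 at least 2-fold lower, no larger a share than among all genes (6.56% and 6.12%), and the median log2 ratio was -0.30. With the same sum 4 were at least 2-fold higher and 0 lower, beside 20.7% and 3.21% of all genes. The median on that scale was 0.30, below the 0.59 of all genes. Sulf2, a sulfatase that trims the sulfate groups of the chain outside the cell, had 10.6 FPKM in CTRL and 22.7 in IR12. Gpc3, a membrane proteoglycan, had 4.06 and 1.36, and its log2 ratio with the same sum was -0.63. Sdc4, a syndecan that binds FGF2, had the highest mean, with 44.9 and 36.6, although in IR12 Hs2st1, a sulfotransferase, was higher (38.6).

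The kinases and adaptors downstream of FGF receptors differed little. Of 20 genes reported here, from the adaptor Frs2 to Pik3ca and Akt1, 0 were past 2-fold, beside 6.56% of all genes higher and 6.12% lower. Of the 20, 15 were higher and 5 lower, and the median log2 ratio was 0.17. With the same sum 2 of 20 were past 2-fold higher, fewer than the 20.7% of all genes, and the median was 0.77, beside 0.59 for all genes. Ptpn11, which encodes the phosphatase SHP2 that couples receptors to RAS, had the highest mean of these 20, with 58.9 FPKM in CTRL and 73.2 in IR12. Frs2, the docking protein of FGF receptors, had 20.9 in each library.

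The feedback inhibitors of the pathway went both ways in the deposited values. Of 10 tested, 4 were at least 2-fold higher and 1 at least 2-fold lower, beside 6.56% and 6.12% of all genes, while the median log2 ratio of the list was -0.25. Over the 8 with an FPKM of at least 1 in both libraries, 3 were at least 2-fold higher and the median was also -0.25. On the scale of the same sum 8 were higher and 2 lower, with a median of 0.27, below the 0.59 of all genes. On that scale 4 were at least 2-fold higher and 0 at least 2-fold lower, beside 20.7% and 3.21% of all genes. Dusp6, a MAP kinase phosphatase, had 3.94 FPKM in CTRL and 36.8 in IR12. Spry2, a Sprouty inhibitor of receptor signalling, had 5.29 and 23.6. Dusp5, a nuclear MAP kinase phosphatase, had 4.51 and 14.3, and Spred3, a Sprouty-related inhibitor, had 0.637 and 3.26. Dusp4, another phosphatase of this family, was lower, with 15.4 and 6.52. Spry1, Spry4, Spred1, Spred2 and Il17rd had log2 ratios from -0.69 for Il17rd to -0.19 for Spry4, and with the same sum Il17rd alone of these 5 was lower, at -0.30. Spred1 was the most abundant, with 49.4 and 38.0.

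Genes known to be switched on by the MAP kinase cascade were read as a further list. Of 9 tested, 5 were at least 2-fold higher and 0 at least 2-fold lower, beside 6.56% and 6.12% of all genes, with a median log2 ratio of 1.40. It was also 5 and 0 with the same sum, beside 20.7% and 3.21%. Of these 9, 3 (Fosl1, Junb and Myc) reached the minimum FPKM in IR12 alone and so had to be higher there. Over the 6 that reached it in both libraries, 2 were at least 2-fold higher and the median was -0.18. Fosl1, a subunit of the AP-1 transcription factor, was listed at 0 in CTRL and had an FPKM of 33.4 in IR12. Junb and Fos, also AP-1 subunits, had 0.780 and 7.40 in CTRL and 16.7 and 21.2 in IR12. The growth regulators Myc and Ccnd1 had 0.0911 and 3.90 in CTRL and 7.79 and 36.3 in IR12. The ETS factors Etv1, Etv4 and Etv5, known as close readouts of FGF signalling in development, were not higher in the deposited values, with log2 ratios of -0.65, -0.10 and -0.26, and the immediate early gene Egr1 had -0.65. With the same sum these 4 genes lay between -0.07 and 0.34, below the median of all genes. Many of these genes also respond to other receptors, and the lists do not tell FGF receptors from them.

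**Figure D4:**
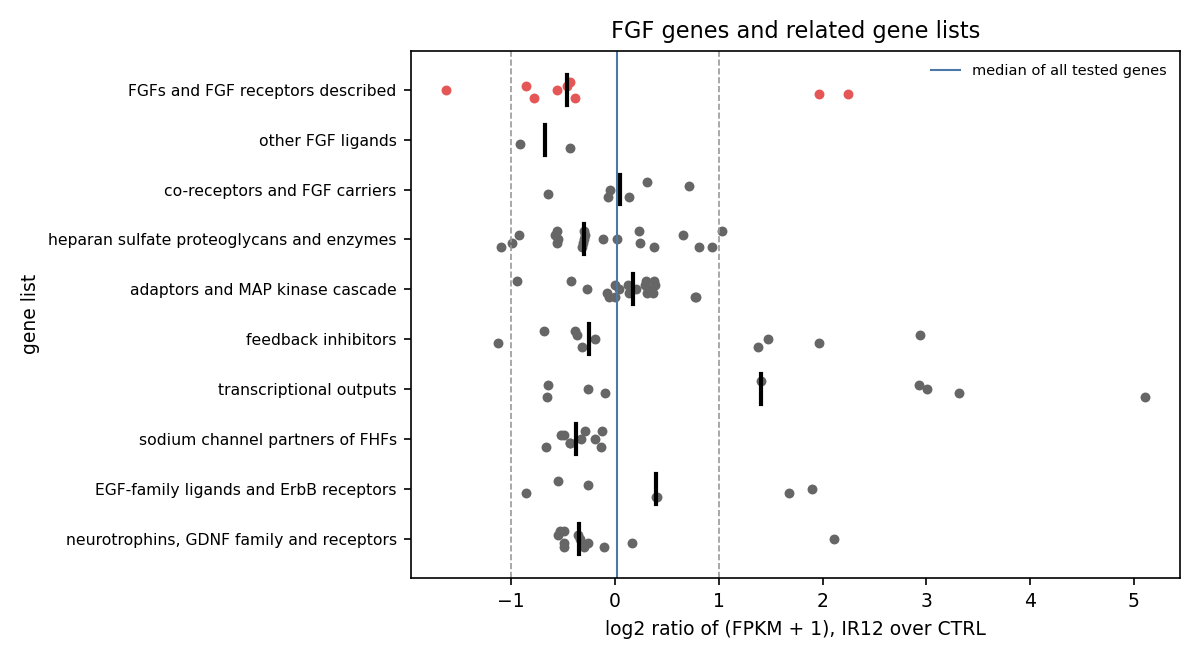
Log2 ratio of (FPKM + 1), IR12 over CTRL, of each tested gene, by list, with a black bar at the median of each list, a blue line at the median of all tested genes and dashed lines at 2-fold. The FGF genes spread from -1.63 to 2.25, and the transcriptional outputs reach 5.10.

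Among other growth factor systems, the EGF family had 2 of 7 tested genes at least 2-fold higher and 0 at least 2-fold lower, beside 6.56% and 6.12% of all genes, with a median log2 ratio of 0.40, or 0.70 with the same sum. Over the 5 with an FPKM of at least 1 in both libraries, 1 was at least 2-fold higher and the median was -0.26. The 2 genes at least 2-fold higher among the 7 were Hbegf, with 10.1 FPKM in CTRL and 34.4 in IR12, and Btc, with 0.945 and 6.26. Both are ligands of the EGF receptor. Btc reached the minimum FPKM in IR12 alone and so had to be higher there. The list of neurotrophins, GDNF family and receptors, which also holds the cytokine Cntf and its receptor, had 1 of 12 tested genes at least 2-fold higher, near the share of all genes, and 0 at least 2-fold lower, with a median of -0.35, or 0.16 with the same sum. This was Ngfr, the p75 neurotrophin receptor, with 2.23 and 13.0, and Cntf was the most abundant, with 22.1 and 17.0. The counts were also 2 of 7 and 1 of 12 with the same sum, beside 20.7% of all genes. The median of all genes on that scale was 0.59.

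Markers of the cells in the tissue were read beside the receptors. Both libraries held abundant rod photoreceptor RNA, as their retina label states, with a sum of 7801 in CTRL and 7250 in IR12 over the 6 genes reported here, of which Gnat1, the rod transducin, was the highest (4027 and 4237). Beside the lower Fgfr2 and Fgfr3, 7 of 7 Müller glia markers were at least 2-fold lower in IR12, as were 6.12% of all genes. With the same sum it was 5 of 7, beside 3.21% of all genes. Of the 7 markers, Kcnj10 reached the minimum FPKM in CTRL alone and so had to be lower. Over the other markers 6 of 6 were at least 2-fold lower in the deposited values. Their FPKM summed to 1445 in CTRL and 328 in IR12, Glul, the glutamine synthetase of Müller cells, was the most abundant (754 and 126), and none was at 0. Of 11 lens genes, 11 were lower and 10 at least 2-fold lower, with the deposited values as with the same sum. The shares of all genes at least 2-fold lower were 6.12% and 3.21%. Bfsp2 reached the minimum in CTRL alone, and of the other 10 lens genes 9 were at least 2-fold lower. Their sum was 3061 in CTRL and 368 in IR12, Cryba1, a crystallin, was the most abundant (1614 and 196), and none was at 0. Both lists were thus lower together with these receptors. In IR12 the Müller sum was 0.227 times and the lens sum 0.120 times that in CTRL, beside 0.220 times for Fgfr2 and 0.250 times for Fgfr3. Their part in the receptor values was not tested.

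Beside the higher Fgf2 and Fgfr1, 7 of 7 tested leukocyte genes were higher in IR12. At least 2-fold higher were 6 of them, beside 6.56% of all genes, and 7 with the same sum, beside 20.7%. Of these 7, 6 reached the minimum FPKM in IR12 alone and so had to be higher there, which leaves Lyz2. Their FPKM summed to 11.6 in CTRL and 126 in IR12, Lyz2, the lysozyme of myeloid cells, was the most abundant (9.73 and 76.9), and S100a8 and Cd3e were at 0 in CTRL. The astrocyte list summed to 28.8 and 27.8, with S100b the most abundant in CTRL (25.8 and 5.81) and Pax2 at 0 in CTRL. In IR12 the most abundant was Gfap, an intermediate filament of astrocytes that Müller cells also make after injury, with 2.95 and 21.9. The vascular list was lower in sum, with 157 and 93.1, of which Kdr, the most abundant, held 108 and 66.8. Of its 6 tested genes 5 were lower in the deposited values and 4 with the same sum. Cdh5, which reached the minimum FPKM in IR12 alone, was higher in the deposited values, with 0.883 and 1.63. Tie1, below the minimum in both libraries, was also higher, with 0.423 and 0.712. Krt12, a keratin of the cornea, had 0.874 and 12.5, and the 3 genes of the cornea and conjunctiva list summed to 0.874 and 13.2, with Krt5 and Krt14 at 0 in CTRL. The blood list summed to 28.4 and 52.6, with Hbb the most abundant (20.4 and 35.1). Pigment epithelium genes summed to 28.3 and 30.0, with Rgr the most abundant (13.7 and 21.6) and Rpe65 lower (11.1 and 4.88), and the 3 oligodendrocyte genes reported here to 3.25 and 2.98, with Mbp the highest of these (2.97 and 2.86). The part of these tissues in the Fgf2 and Fgfr1 values was not tested.

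**Figure D5:**
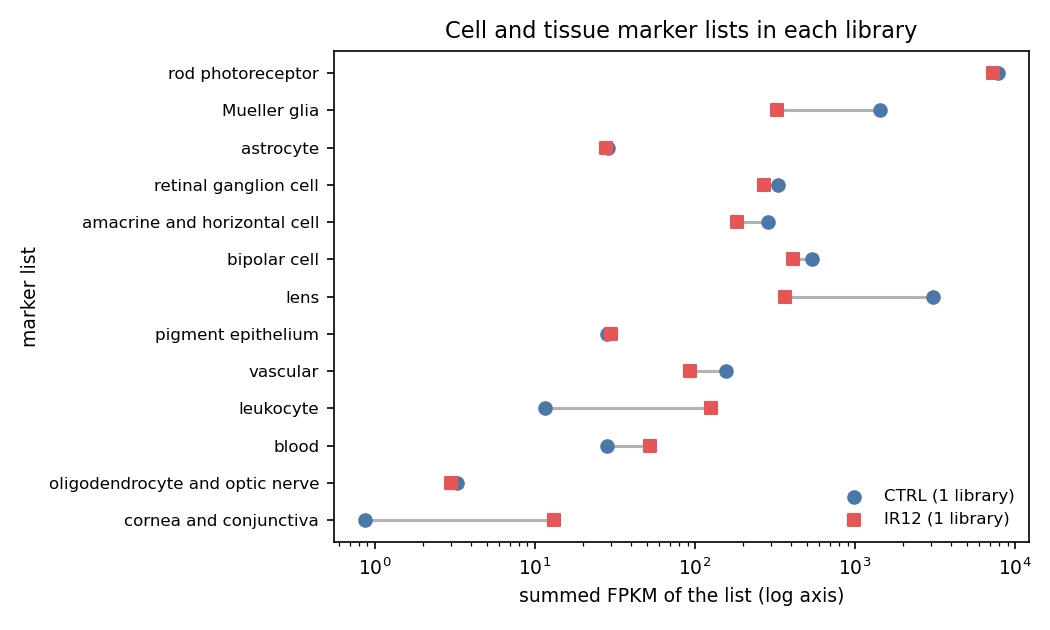
Summed FPKM of each marker list on a log axis, with a circle for the CTRL library and a square for the IR12 library. The lens and Müller glia lists lie lower in IR12, at 368 and 328, the leukocyte list lies higher, at 126, and the rod genes are at 7801 and 7250.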

How the data were processed

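The 2 retina libraries were made from total RNA with a stranded kit after rRNA removal. The authors deposited FPKM per gene, with 1 column per library, matched here to its sample by name. The submitters' processing notes name STAR 2.5.2b, Cuffdiff 2.2.0 and rn6. Since start positions are given from 0, 1 was added to each for printing. Columns summed to 1402321 in CTRL and 895199.9 in IR12.

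Log2 ratios of (FPKM + 1) were computed, IR12 over CTRL. Genes with FPKM of at least 1 in at least 1 library were read against a 2-fold limit, with no statistical test, and Fgfr4, below this minimum, has a ratio but enters no count. For symbols with several rows the row with the highest FPKM was used. Alternatives were a pseudocount of 0.1, the same sum in both libraries, the same sum without small non-coding RNAs (by symbol), centring on the median gene, and a minimum FPKM of 5 or none. The value of 1 read came from the lowest repeated FPKM at 25 locus lengths under 1500 bp, of which 17 gave a CTRL to IR12 ratio within 1% of 1.71, and from a line through 9 of them. The procedures were tested on simulated data. Without molecular identifiers, reads do not count single molecules.

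The members and lists were chosen with earlier results of these data known. Named are the 10 members, and from each pathway list the most abundant gene and those past 2-fold in the deposited values. Fgf10, Fgf11, Fgfrl1 and the tested feedback inhibitors are named as well, but not every other ligand or receptor of the lists. From each marker list the most abundant gene and those at 0 are named. Lists leave out 3 genes that are not reported here. Nudt6, Frs2, Etv1, Etv4, Etv5, Egr1, Gfap, Hs2st1, Kcnj10, Bfsp2, Rpe65, Cdh5, Tie1, Krt5, Krt14, S100a8, Cd3e and Pax2 were chosen after the data were seen. The grouping of Fgf10 with Fgf1, Fgf2 and Fgf9, the motifs and the ratios within a library were also chosen then. The software was matplotlib 3.10.9, scipy 1.17.1, pandas 2.3.3 and numpy 2.4.6 on Python 3.11.15.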

Additional observations from a re-analysis of the deposited data

How the results depend on the processing

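Of 112 values recomputed under 6 alternatives, 96 kept their direction and lay within 1.5 times of the value reported. For a log2 ratio the 1.5 times refers to the ratio before the log was taken. The log2 ratio of a gene does not depend on the minimum FPKM, so under another minimum it was the same by construction. The count of 2 members at least 2-fold higher was the same under each of the 6 alternatives. The share of all genes was nevertheless 20.7% with the same sum and 6.56% in the deposited values. With a pseudocount of 0.1, 2 members were at least 2-fold lower (Fgfr2 and Fgfr3), as were 2 feedback inhibitors. It was 6 genes of the 7 FGF pathway lists in place of 2, beside 8.65% of all genes in place of 6.12%. With the same sum in both libraries the median of the members was 0.18, and the log2 ratios turned to 0.19 for Fgf1, 0.0595 for Fgf9, 0.17 for Fgf12, 0.19 for Fgf13 and 0.26 for Fgfr4. This follows from the construction, which raises IR12 relative to CTRL. On that scale 16 pathway genes were at least 2-fold higher, in place of 10, of 78 tested, about the 20.7% of all genes, and 0 at least 2-fold lower, with 0 feedback inhibitors. Without small non-coding RNAs 5 pathway genes were at least 2-fold lower, beside 6.88% of all genes. With a minimum FPKM of 5 the count of lower pathway genes was 1. Members below an FPKM of 5 were not recomputed under that minimum.

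With 1 library per condition no replicate check was possible. No paired analysis was possible because each condition has 1 library. Depth limits Fgfr3 and Fgfr4 most, which rest on 9.72 to 23.2 reads per kb.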
